A study of Mus musculus with 4 samples.

Results

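Skeletal muscle transcripts were read from RNA of whole embryonic mouse kidneys. They comprised 32 genes of the myogenic programme, chosen by name, among 18193 genes with a probe set that the platform annotation assigns to a single symbol. All 32 had such a probe set, and each gene is shown by the one with the highest mean signal over the 4 pools, a choice that uses all pools and can favour a probe set that is bright in a single pool. The genes fall into 5 regulators, 18 contractile genes and 9 others, the last being 3 calcium-handling proteins, 3 acetylcholine receptor subunits, 1 cadherin and 2 proteins of muscle metabolism.

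The kidneys came from C57BL/6 embryos at embryonic day 15. The control dams ate a diet with 220 ppm iron, and the iron-deficient dams one with 2 to 6 ppm iron, for 3 weeks before gestation and on through pregnancy. Each diet had 2 pools of 16 kidneys, called here the control and the deficient pools 1 and 2, and each pool was measured on 1 array, so that differences between embryos are averaged away within a pool. Whether the 2 pools of a diet hold different litters is not stated, so the p-values speak of the spread among these 4 arrays, part of which may be technical. The comparison of diets asks which transcripts differ in kidneys of embryos carried by iron-deficient dams. In pooled whole organs, fewer cells of a type and less RNA per cell cannot be told apart.

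Skeletal muscle forms when precursor cells, marked by Pax7 and Myf5, switch on the transcription factor Myod1, leave the cell cycle under Myog and fuse into fibres that then build sarcomeres. The factors Myod1, Myf5, Myog and Myf6 are basic helix-loop-helix proteins that bind E-boxes, short DNA motifs read as CANNTG, in muscle genes. The embryonic sarcomere carries developmental myosins (Myh3, Myh8, Myl4) and cardiac actin (Actc1) alongside skeletal actin (Acta1), and fast and slow forms of the troponins are made from separate genes. Kidney itself forms no skeletal muscle.

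The sequences just upstream of 5 transcription starts are shown because these genes carry the largest mean signals among the contractile genes with an entry (Mylpf, Actc1, Tnnt1, Des), or because the gene is a regulator above background in all pools (Myog, chosen after its values were seen). They are 250 bases each from RefSeq on GRCm38.p6, written 5′ to 3′ on the strand of the gene and ending at the base before the start. Capitals mark every CANNTG E-box, a palindrome in outline, so that a search of one strand covers both. The regions are chr7:127211358-127211607 on the plus strand for Mylpf, chr2:114052876-114053125 on the minus strand for Actc1, chr7:4515976-4516225 on the minus strand for Tnnt1, chr1:75360042-75360291 on the plus strand for Des and chr1:134289754-134290003 on the plus strand for Myog.
Mylpf: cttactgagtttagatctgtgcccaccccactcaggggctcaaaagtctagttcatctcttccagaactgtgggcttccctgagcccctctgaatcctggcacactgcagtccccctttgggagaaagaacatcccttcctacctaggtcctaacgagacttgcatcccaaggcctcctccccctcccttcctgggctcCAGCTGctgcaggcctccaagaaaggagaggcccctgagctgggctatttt
Actc1: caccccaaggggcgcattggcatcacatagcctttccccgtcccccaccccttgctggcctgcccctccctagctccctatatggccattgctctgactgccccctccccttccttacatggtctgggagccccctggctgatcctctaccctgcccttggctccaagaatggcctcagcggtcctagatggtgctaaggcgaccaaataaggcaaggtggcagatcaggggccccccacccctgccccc
Tnnt1: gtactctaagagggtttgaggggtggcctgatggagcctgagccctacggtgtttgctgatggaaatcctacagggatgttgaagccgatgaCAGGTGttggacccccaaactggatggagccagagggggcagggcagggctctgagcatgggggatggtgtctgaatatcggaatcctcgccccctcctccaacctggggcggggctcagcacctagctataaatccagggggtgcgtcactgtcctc
Des: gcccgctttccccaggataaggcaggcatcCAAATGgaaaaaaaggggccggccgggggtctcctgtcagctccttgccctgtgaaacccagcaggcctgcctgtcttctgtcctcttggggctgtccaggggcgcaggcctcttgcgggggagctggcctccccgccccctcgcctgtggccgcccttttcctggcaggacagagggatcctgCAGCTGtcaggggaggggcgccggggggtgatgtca
Myog: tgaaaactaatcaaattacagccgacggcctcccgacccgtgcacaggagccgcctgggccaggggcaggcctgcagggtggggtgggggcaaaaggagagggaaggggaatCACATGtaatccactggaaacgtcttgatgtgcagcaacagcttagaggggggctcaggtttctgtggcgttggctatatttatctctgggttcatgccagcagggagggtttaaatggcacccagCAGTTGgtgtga

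An E-box of the form CAGCTG, which is one case of CANNTG, starts 51 bases before the start of Mylpf and 36 bases before that of Des. The Tnnt1 window holds 1 CANNTG and the Myog window 2, none of them CAGCTG, and the letters CANNTG are not in the Actc1 window. RefSeq windows were at hand for 26 of the 32 genes, which have 30 transcription starts. CAGCTG was found in 13 of the 30 (43.3%), against 4271 of all 32851 windows of the same length (13.0%). The wider CANNTG was found in 23 of the 30 (76.7%), against 66.2% of all windows. These matches describe letters and were not tested as binding sites.

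Before the values, 4 facts about the arrays bear on them. Kidney genes served as a check of the tissue: all 13 of the listed kidney markers with a probe set, among them Podxl (podocytes), Wt1 and Lhx1 (early nephrons), were above background in all 4 pools. Their summed signal lay between 8932 and 9602, but single markers differed. Both iron-deficient pools lay below both controls for 4 of the 13, against 25.0% of all tested probe sets, and above both for 3, against 11.8%. The widest differences among the 13 were those of Umod and Lrp2. Umod gave 104, 111, 14.8 and 29.3, and Lrp2 625.4, 479.8, 100.6 and 232.6, in control pools 1 and 2 and deficient pools 1 and 2. Background is the highest signal, on each array, of 27 control probe sets without a spike, and it was 8.5 and 8.2 for control pools 1 and 2 and 14.4 and 13.3 for deficient pools 1 and 2. Deficient pool 1 stood apart, with correlations of 0.883 to 0.913 to the other arrays against 0.978 between the control pools, and with a 5′ 18S ribosomal RNA signal of 2144 against 243 to 291.9 elsewhere. All 4 pools are labelled female, but the Y-linked gene Eif2s3y gave signals of 594.5 and 600 in the controls, 253.6 in deficient pool 1 and 20.8 in deficient pool 2 and the labels do not say whose sex is meant. The part of these differences in the muscle signals was not tested.

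Of the 32 genes, 21 were above background in all 4 pools, against 58.6% of all probe sets, and 6 in none. Contractile genes were brightest in deficient pool 2, and the regulators Myod1 and Myog were higher than in the controls in both iron-deficient pools. Of the 18 contractile genes, 13 were at least 2-fold higher in deficient pool 2 than in each other pool, by 2.02-fold to 7.34-fold over the next highest pool. Over all 32 genes this held for 15, the others being Myog and Casq2, against 0.289% of the 45037 probe sets of the array, where signals below 14.4, the highest of the 4 backgrounds, were set to that value. None of the 32 stood out in this way in deficient pool 1, where 4.86% of all probe sets did. Both iron-deficient pools were at least 2-fold above both control pools for Myod1 and Myog, again out of 32, against 0.22% of all probe sets. Deficient pool 2 was the highest pool for 25 of the 32 genes and for 20.9% of all probe sets. The counts for deficient pool 2 describe that pool alone and have no replicate check.

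**Figure D1:**
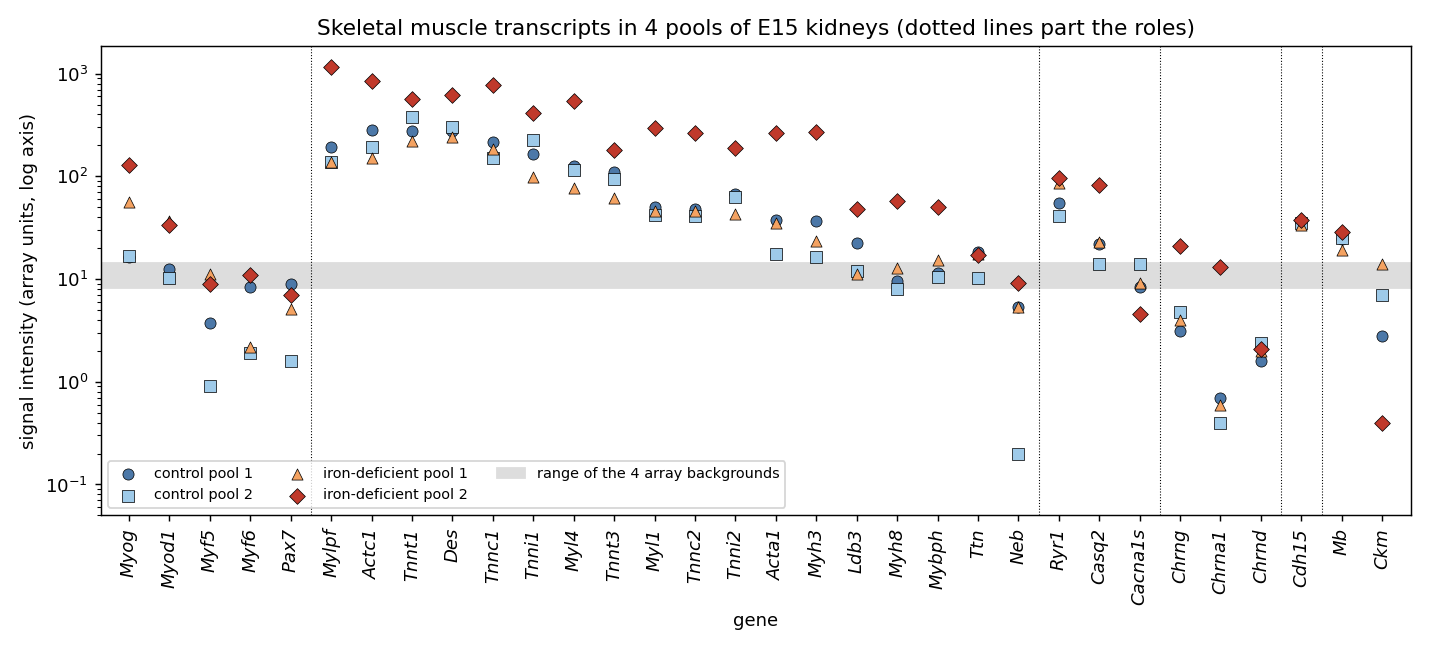
Signal intensity (log axis) of each of the 32 muscle genes in the 4 pools, grouped by role with dotted lines and ordered by mean within a role; the grey band spans the 4 array backgrounds. Deficient pool 2 (red diamonds) is the highest pool for 17 of 18 contractile genes, and for Myog and Myod1 both deficient pools lie above the controls.

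Among the regulators, Myod1, the factor that commits cells to the muscle fate, gave 12.4 and 10.3 in the controls and 36.8 and 33.9 under iron deficiency. All 4 signals were above background, the groups did not overlap, and the iron-deficient pools were close to each other. A second Myod1 probe set was above background in no pool, at 2.5, 1.7, 1.0 and 2.1, was not tested, and showed no rise. On the first, the log2 difference between diets was 1.64 ± 0.32 (SE, n = 2 pools a diet, limma, adjusted p = 0.757). Myog (myogenin), which drives differentiation, gave 16.4 and 16.7 in the controls, 56.5 in deficient pool 1 and 129.9 in deficient pool 2. Again the groups did not overlap, and pool 2 was 2.30-fold above pool 1. Its log2 difference was 2.37 ± 0.48 (SE, n = 2 pools a diet; limma, adjusted p = 0.786). Neither passed the adjusted test, and an exact permutation test of 2 pools against 2 cannot go below p = 0.333.

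The other regulators were dim. Myf5, an early determination factor, gave 3.7 and 0.9 in the controls and 11.1 and 8.9 under iron deficiency, none above its array's background. Myf6, a factor of later fibres, was above background in no pool either, with signals of 8.4, 1.9, 2.2 and 10.9. Pax7, the mark of muscle stem cells, exceeded background in control pool 1, at 8.9, and not in the other pools (1.6, 5.1 and 7.0). No difference can be read from these 3 genes, since they were not bright enough to be tested.

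Among the actins and myosins, Acta1 gave 37.4 and 17.4 in the controls, 35.2 in deficient pool 1 and 264.7 in deficient pool 2. Actc1, the cardiac actin that embryonic muscle also uses, gave 285.2, 192.7, 149.5 and 853.5 in the same order. Myh3, the embryonic myosin heavy chain, gave 36.6, 16.3, 23.3 and 268.6. In each of these genes pool 2 was high, and pool 1 lay within or below the range of the control pools. Pool 2 exceeded the next highest pool 7.34-fold for Myh3, 7.08-fold for Acta1 and 2.99-fold for Actc1. Myh8, the perinatal myosin heavy chain, gave 9.6, 8.0, 12.8 and 57.8 and was above background in control pool 1 and deficient pool 2.

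The myosin light chains followed the same order. Mylpf, the regulatory light chain of fast fibres, gave 193 and 136.8 in the controls, 136.5 in deficient pool 1 and 1162 in deficient pool 2. Myl1, an essential light chain of fast fibres, gave 49.9, 42, 45.5 and 294.8, and Myl4, its embryonic and atrial counterpart, gave 125.2, 116.2, 77.2 and 546.2. Pool 2 was 6.02-fold, 5.91-fold and 4.36-fold above the next highest pool for Mylpf, Myl1 and Myl4.

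The troponins, which make contraction answer to calcium, varied in how far pool 2 stood out. The calcium-binding subunits showed the wider gaps, with 213.9, 151.4, 182.7 and 773.4 for the slow form Tnnc1 and 47.9, 41.5, 45.6 and 263.2 for the fast form Tnnc2. For the inhibitory subunits, the fast form Tnni2 gave 66.8, 63.5, 42.6 and 190.6 and the slow form Tnni1 165.5, 224.3, 97.8 and 409.3. Deficient pool 1 was the lowest pool for both. The tropomyosin-binding subunits showed the narrower gaps, with 278.7, 378.9, 220.7 and 560.6 for the slow Tnnt1 and 109.2, 94.5, 62.2 and 181.5 for the fast Tnnt3. Pool 2 over the next highest pool was 3.62-fold for Tnnc1, 5.50-fold for Tnnc2, 2.85-fold for Tnni2, 1.83-fold for Tnni1, 1.48-fold for Tnnt1 and 1.66-fold for Tnnt3. Fast and slow forms were thus both brightest in this pool. A second probe set of Tnni2 gave 21.9, 18.2, 23.1 and 52.2, also highest in pool 2.

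The remaining contractile genes build the sarcomere's scaffold. Des, the intermediate filament desmin, which smooth muscle also makes, gave 274.8, 304.2, 239.2 and 614.5, a 2.02-fold gap of pool 2 over the next pool. Mybph, a myosin-binding protein, gave 11.5, 10.5, 15.3 and 50.4, and it was the contractile gene above background in all pools for which deficient pool 1 also lay above both controls. Ldb3, a Z-disc protein, gave 22.3, 12.1, 11.3 and 47.8, while a second tested probe set of it gave 16.7, 18, 18.8 and 23.7, so its probe sets disagree in the size of the gap. The giant proteins were near background. The probe set taken for Ttn gave 18.3, 10.2, 17.7 and 17.3, with no gap, and another Ttn probe set gave 11.4, 4.5, 1.5 and 41.5. Neb was above background in no pool, at 5.3, 0.2, 5.3 and 9.2.

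Of the 15 contractile genes above background in all pools, deficient pool 1 lay between the control pools for 6, below both for 8 and above both for 1. Deficient pool 2 lay above every other pool for 14. Over all tested probe sets, deficient pool 1 was the lowest pool for 47.3% and deficient pool 2 the highest for 23.0%. A low deficient pool 1 is therefore not particular to these genes. Summed over the 18 contractile probe sets, the signal was 1951 and 1821 in the controls, 1420 in deficient pool 1 and 6565 in deficient pool 2. The summed signal of the 5 regulators was 49.8 and 31.4 in the controls and 111.7 and 190.6 under iron deficiency, most of it from Myod1 and Myog. The median difference from the control pools over the contractile genes was -0.16 log2 units in deficient pool 1 and 1.84 in pool 2, with signals below 14.4 set to it. Over the 5 regulators that median was 0 in both, since Myf5, Myf6 and Pax7 lay below 14.4 in every pool. Over all probe sets it was 0 in both, a value held there by dim probe sets set to 14.4. Whether regulators and contractile genes differ in this respect was not tested.

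**Figure D2:**
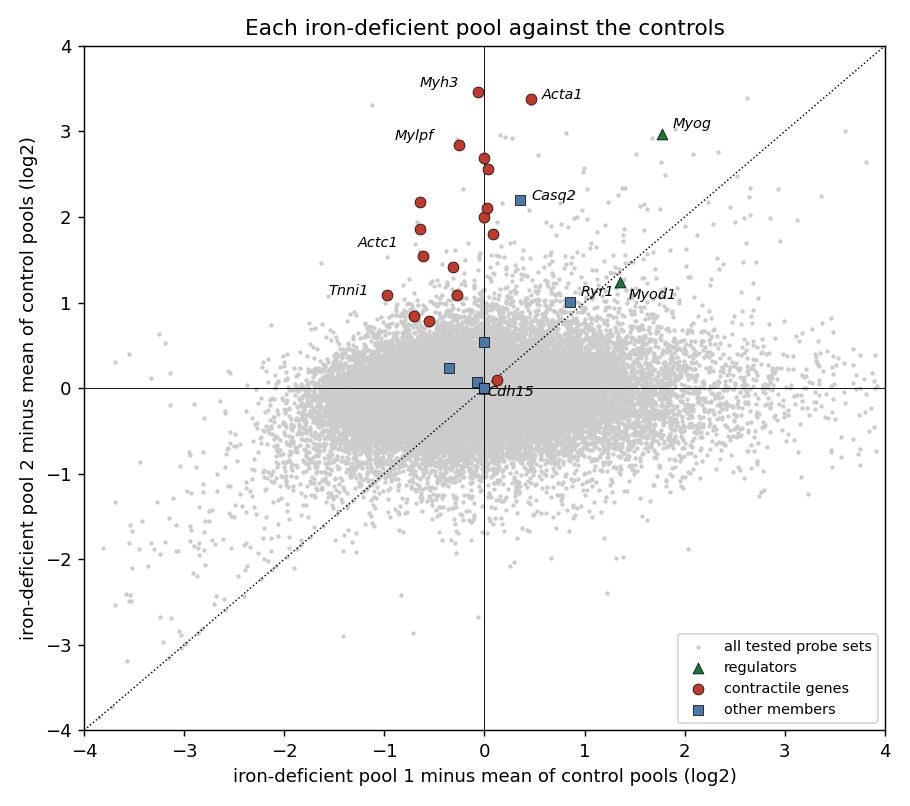
Log2 difference of each iron-deficient pool from the mean of the control pools, with pool 1 on the horizontal and pool 2 on the vertical axis and signals below 14.4 set to it; grey points are all tested probe sets, of which 60 lie beyond the axis limits of 4, and the dotted line marks equal differences. Most contractile genes (circles) lie well above 0 on the vertical axis, the exceptions being Ttn (0.09) and Neb (0), and the contractile genes lie between -0.98 and 0.46 on the horizontal one, while Myod1 and Myog (triangles) are above 1 on both.

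Genes of excitation and contact differed among themselves. Ryr1, the calcium release channel of the skeletal sarcoplasmic reticulum, gave 55 and 41.3 in the controls and 86.3 and 96.1 under iron deficiency, with no overlap. A second, dimmer probe set of Ryr1, above background in 2 pools and not tested, gave 17, 6.8, 13 and 19, and its groups overlapped. On the first, the log2 difference was 0.93 ± 0.34 (SE, n = 2 pools a diet; limma, adjusted p = 0.852). Casq2, a calcium-binding protein of slow and cardiac fibres, gave 22, 14.1, 22.8 and 81.8, so that pool 2 stood out as it did for the contractile genes. Cacna1s, the voltage sensor of the fibre membrane, was near background at 8.3, 14, 9.2 and 4.6. Of the acetylcholine receptor subunits, Chrng, the fetal subunit, was above background in deficient pool 2, at 20.9, and not elsewhere (3.1, 4.8 and 4.0). Chrna1 (0.7, 0.4, 0.6 and 13.0) and Chrnd (1.6, 2.4, 2.0 and 2.1) were above background in no pool.

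Cdh15, the M-cadherin of muscle precursors, was level over the pools at 35.9, 35.2, 33.7 and 37.4. Mb, the oxygen-binding protein myoglobin, gave 24.3, 24.9, 19.3 and 29, with overlapping groups. Ckm, the creatine kinase of mature muscle, was above background in no pool on either of its probe sets (2.8, 7, 14.1 and 0.4 on the one taken). Neither gene of muscle metabolism had a 2-fold gap in pool 2.

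In the diet comparison across all 27022 probe sets bright enough to be tested, 21 of the 32 genes were covered, and none passed an adjusted p of 0.05 (limma, adjusted p from 0.757 to 0.999). No probe set of the array passed either (0%), whereas with each array centred on its median 201 of the 27022 passed (82 higher, 119 lower), Myog among them (limma, adjusted p = 0.00803). In that centred fit limma took a single variance for all probe sets, and the log2 difference of Myog was 2.36 against 2.37 without centring. At an unadjusted p below 0.05, 3 of the 21 were higher in the iron-deficient pools (Myod1, Myog and Ryr1) and 0 lower, against 1.14% higher and 2.81% lower of all tested probe sets (309 and 760). With each array centred on its median, that split of all tested probe sets was 753 higher and 601 lower and 9 of the 21 genes were higher, and after quantile normalization it was 424 and 617, with 3 of the 21 higher. The groups did not overlap, with the iron-deficient pools the higher, for 5 of the 21 (Myod1, Myog, Mybph, Ryr1 and Casq2), against 11.8% of all tested probe sets, and with them the lower for 0, against 25.0%. The limit on dim signals affects these counts. Myod1, Myog, Mybph and Ldb3 lay below it on the mean of the control pools and were tested because of their iron-deficient pools, so a difference was built into their entry, while the other 17 passed on the control pools alone, as did 97.2% of all tested probe sets. Of the genes counted here, Ryr1 and Casq2 are among those 17. The counts therefore describe the 21 genes and do not stand for all 32.

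The contractile genes had wide errors because their iron-deficient pools lay far apart. The log2 difference between diets was 1.70 ± 1.16 for Myh3, 1.29 ± 0.99 for Mylpf, 0.77 ± 0.91 for Myl4 and 0.11 ± 0.53 for Tnnt1 (SE, n = 2 pools a diet). Within the tested genes, the difference of deficient pool 2 from pool 1 had a median of 2.07 log2 units and ran from -0.12 (Myod1) to 3.53 (Myh3). The difference of control pool 2 from pool 1 had a median of -0.21 and ran from -1.17 to 0.44. The iron-deficient pools were also less alike over all tested probe sets, with a standard deviation of 0.964 log2 units between them against 0.504 between the control pools. The median difference between diets over the 21 genes was 0.93, beside -0.10 over all tested probe sets, and it was -0.08 without deficient pool 2. Without that pool, the difference was below 0 for 11 genes that were above 0 with it, among them Actc1 (-0.65), Myl4 (-0.64), Mylpf (-0.25) and Myh3 (-0.07), while Myog was at 1.77. Leaving out each pool in turn kept Myod1 between 1.51 and 1.78 and Ryr1 between 0.73 and 1.14.

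**Figure D3:**
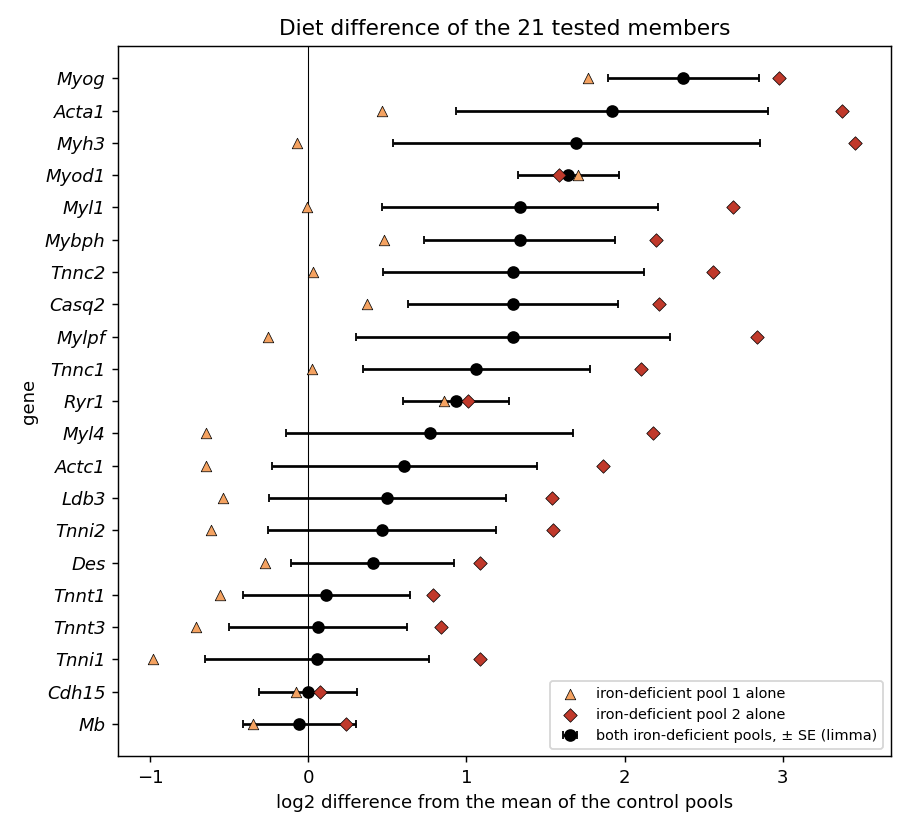
Log2 difference from the mean of the control pools for the 21 tested muscle genes: both iron-deficient pools together (black, ± SE from limma, n = 2 pools a diet) and each iron-deficient pool alone. For Myod1 and Ryr1 the pools nearly coincide, whereas for Myh3, Acta1 and Mylpf they lie 2.91 to 3.53 log2 units apart and the bars are wide.

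Other genes of skeletal muscle, in lists that do not hold the 32, showed the same pool for part of the sarcomere. Of 70 such genes with a probe set, 9 were at least 2-fold higher in deficient pool 2 than in each other pool, against 0.289% of all probe sets. Of the 9, 7 were among 31 sarcomere genes. Csrp3, a Z-disc protein, gave 17.2, 10, 18.1 and 120.5, and Myh7, the slow myosin heavy chain, gave 33.1, 37.9, 34.3 and 105.8. Mymk, the membrane protein needed for fusion of muscle cells, gave 10.5, 7.3, 14.5 and 48, and Klhl41, a sarcomere-associated protein, gave 13.5, 13.8, 15.7 and 55.4. These 4 genes were picked for that gap, so their order over the pools follows from the choice. Over the 70 genes, deficient pool 2 was the highest pool for 43, against 20.9% of all probe sets. The adult myosins Myh1, Myh2 and Myh4 did not exceed a signal of 11.9 in any pool.

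Of the 36 genes of these lists that were tested, 0 passed the adjusted test (limma, adjusted p from 0.852 to 0.977). At an unadjusted p below 0.05, 3 were higher and 2 lower, against 1.14% and 2.81% of all tested probe sets. The higher ones were Atp2a1, the calcium pump of fast fibres (23.6, 22.2, 45.8 and 53.7), Mybpc1, a myosin-binding protein of slow fibres (28.1, 20.2, 45.1 and 71.5), and Cox6a2, a muscle subunit of cytochrome oxidase (18.4, 16.2, 29.1 and 32.5). In these genes, as in Myod1, Myog and Ryr1, both iron-deficient pools lay above both controls. All were picked by that p-value, which with 2 pools a diet favours groups that do not overlap. The lower ones were Pgam2, a glycolytic enzyme of muscle that kidney tubules also make (300.7, 348.8, 14.7 and 108.2), and Fabp3, a fatty acid carrier of muscle and kidney (1757, 1814, 632 and 1112). Fabp3 and the transcription factor Mef2c (683.9, 665.6, 1068 and 547.5) are among the brightest of the lists and are not restricted to muscle. The median difference over the 36 was 0.08 log2 units. Both iron-deficient pools lay above both controls for 9 of the 36, against 11.8% of all tested probe sets. They lay below both for 5, against 25.0%.

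**Figure D4:**
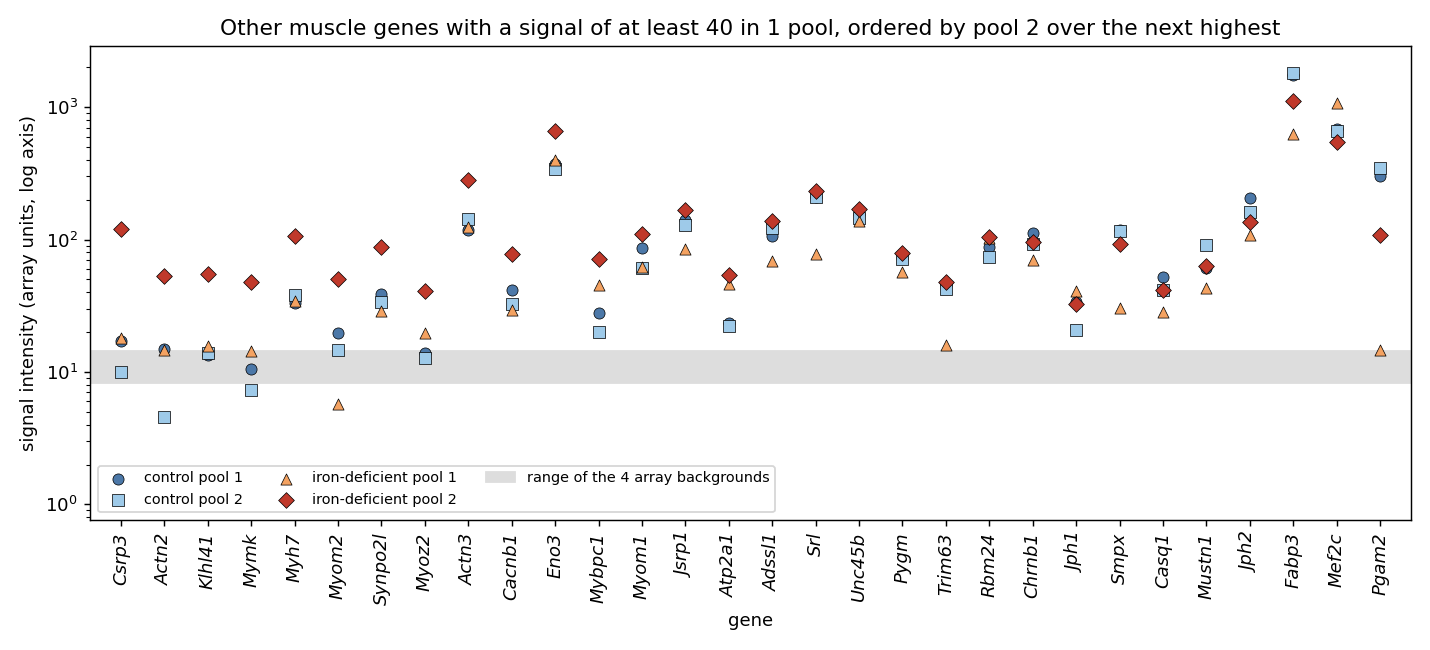
Signal intensity (log axis) in the 4 pools for the other muscle genes that reach a signal of at least 40 in 1 pool, ordered by deficient pool 2 over the next highest pool; the grey band spans the array backgrounds. Csrp3, Actn2, Klhl41, Mymk and Myh7 stand out in deficient pool 2, whereas Fabp3, Mef2c and Pgam2 at the right do not.

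Among 10111 genes with a signal of at least 100 in deficient pool 2, ranked by how far that pool exceeded the next highest, the first 20 places held 9 of the 32 muscle genes, Csrp3, Myh7 and 3 liver genes. The ranking was chosen after the values were seen and admits genes by the pool it ranks, and 5 of the 9 reach 100 in no other pool, so the places are a description. The 4 that do are Mylpf, Myl4, Tnnc1 and Actc1. Alb, serum albumin, had the first place with 45.3, 31.4, 17.3 and 372.6, and Apoa1, an apolipoprotein of liver and gut, gave 57.4, 33.1, 52.9 and 329.9. Both were thus highest in the pool where the contractile genes were. Of 10 liver markers, 6 were at least 2-fold higher in deficient pool 2 than in each other pool, against 0.289% of all probe sets. All 10 were highest there, against 20.9%. The gap was narrower for Fga (1.89-fold), Afp (1.36-fold), Fgb (1.12-fold) and Serpina1b (1.05-fold). Their summed signal was 1500 and 1338 in the controls, 362.2 in deficient pool 1 and 2878 in deficient pool 2. None of the 10 was below background in every pool. The part of this liver signal in the muscle values was not tested.

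Among markers of the other tissues examined, 1 heart gene shared the 2-fold gap. Smooth muscle markers, whose products include Acta2, Tagln and Mylk, summed to 6227 and 6548 in the controls, 5046 in deficient pool 1 and 5478 in pool 2, and pool 2 was the highest pool for 0 of 10. Of 11 heart markers, 4 were above background in no pool (Nkx2-5, Myh6, Nppb and Tbx5), 1 (Irx4) was at least 2-fold higher in pool 2, and the sums were 206.9, 152.3, 175.1 and 276.2. The brightest heart markers had overlapping groups, with 66.7, 40.7, 20.1 and 90 for Tnnt2, 65.2, 40.1, 41.4 and 69.4 for Tnni3 and 28.9, 31.9, 29.8 and 28.6 for Myl7. Sums in the same order were 1014, 1026, 1060 and 1252 for cartilage, bone and tendon markers, 1128, 1127, 1550 and 1459 for nerve and glia, and 561, 389.8, 207.2 and 452.1 for epidermis. Fat markers, nearly all of it Fabp4, summed to 2170, 2630, 2280 and 2831, and pancreas markers to 42.5, 48.3, 45.8 and 50.1. Adrenal markers summed to 214.3 and 185.7 in the controls, 416.8 in deficient pool 1 and 180 in deficient pool 2, so that the pool in which they were high was not the one with the bright sarcomere genes.

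**Figure D5:**
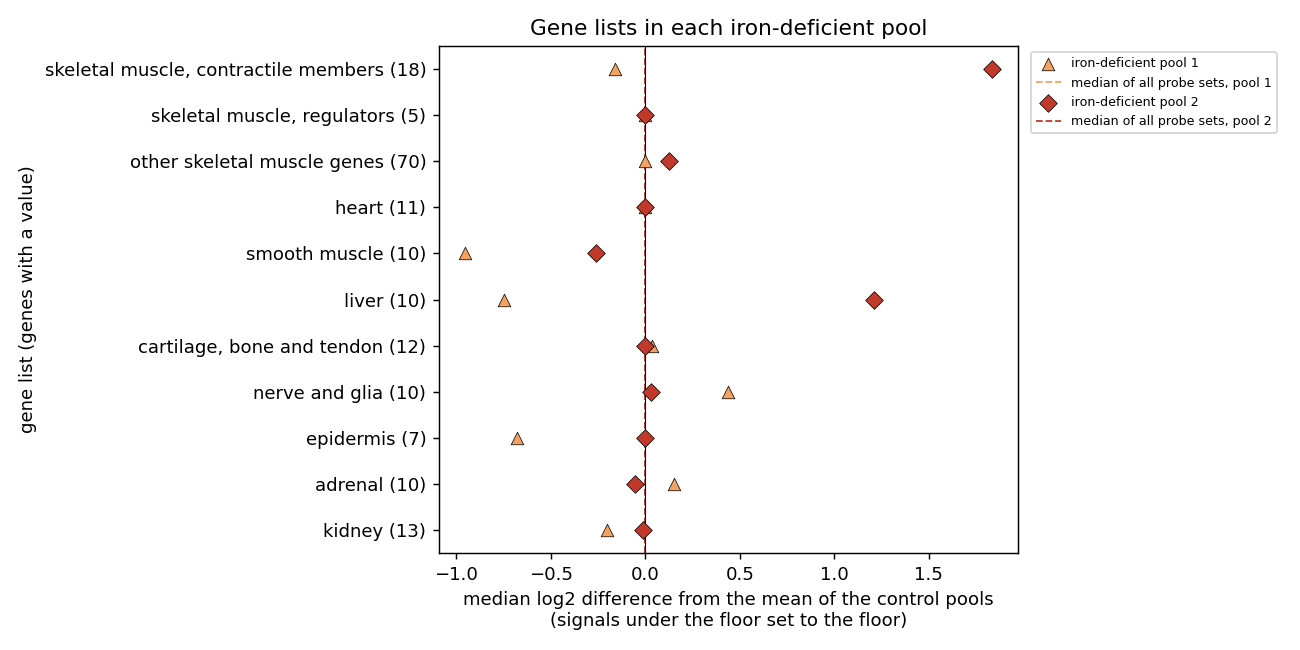
Median log2 difference of each iron-deficient pool from the mean of the control pools for the gene lists (number of genes with a value in parentheses), with signals below the floor of 14.4 set to it. The contractile genes (1.84) and liver markers (1.21) lie to the right in pool 2, where smooth muscle is at -0.26. Heart is at 0 there because most of its markers are dim and set to the floor. The 3 of 11 heart markers above background in all pools were at 0.79 (Tnnt2), 0.44 (Tnni3) and -0.09 (Myl7) in pool 2. In pool 1 the contractile genes are at -0.16 and liver at -0.75.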

How the data were processed

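RNA of 4 kidney pools was labelled with biotin and hybridised to Affymetrix arrays, per the labels' protocols. The authors deposited linear intensities, 1 per probe set. The array of control pool 1 has a mean of 250 once 2% is trimmed at each end, and this mean was computed for that array only. RMA is named in the submitters' processing notes, but it gives log values. The software behind these intensities is therefore not given in the sources used here. Of 45037 non-control probe sets, the platform annotation gives 34945 a single symbol, 932 several and 9160 no symbol.

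Zeros were set to 0.1 and values turned to log2. The lowest 40% by mean were left out (limit 17.3), and diets were compared with limma 3.58.1 in R 4.3.3 (lmFit, eBayes, two-sided, 2 residual and 3.49 prior degrees of freedom), with Benjamini-Hochberg adjustment over 27022 probe sets. The procedure was tested on simulated data. The number of arrays limits the precision. Alternatives were other filters, scalings, moderations, a replicate block, an offset, a background floor and each pool left out.

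All 32 genes are named. Of the other lists, the rule names the 12 brightest other muscle genes and the 3 brightest of each other list, with values given where a result turns on them. Genes with a 2-fold gap or an unadjusted p under 0.05 were added after their values were seen. Members and lists were chosen with earlier results of these data known.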

Additional observations from a re-analysis of the deposited data

How the results depend on the processing

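The direction of the difference held under all alternatives run, 14 or 15 a gene, for 8 of the 21 tested genes and turned under at least 1 for 13, each time when a pool was left out. As each pool was left out in turn, the log2 difference ran from -0.65 to 1.86 for Actc1, -0.068 to 3.46 for Myh3, -0.0088 to 2.69 for Myl1, -0.64 to 2.18 for Myl4, -0.25 to 2.84 for Mylpf, -0.56 to 0.787 for Tnnt1, -0.71 to 0.837 for Tnnt3, -0.98 to 1.09 for Tnni1, -0.61 to 1.55 for Tnni2, -0.27 to 1.09 for Des and -0.54 to 1.54 for Ldb3. The lowest value of each came without iron-deficient pool 2. Cdh15 ran from -0.077 to 0.073 and Mb from -0.35 to 0.24, with the highest value of each without iron-deficient pool 1. Tnnt1 (-0.11) and Tnni1 (-0.16) also turned without control pool 1, and Tnnt3 (-0.04) without control pool 2. The median over the tested genes ran from -0.077 to 1.86 in the same way, and from 0.51 to 1.02 under the other settings.

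The number of the 32 genes that passed the adjusted test in limma rose from 0 to 1 when each array was centred on its median (Myog, adjusted p = 0.00803; 201 of 27022 probe sets passed), and that of the other muscle genes from 0 to 1. With the replicate number as a block, 4 of the 32 passed (Myod1, Myog, Acta1 and Myh3, limma adjusted p from 0.000102 to 0.0317) and 2 of the other muscle genes, out of 479 calls in all. That fit has 1 residual degree of freedom, and in it and in the median-centred fit limma took a single variance for all probe sets. At an unadjusted p under 0.05, the 3 higher genes became 9 with median centring (753 higher and 601 lower among all 27022), 11 with the block (1228 and 1115) and 18 without iron-deficient pool 1 (855 and 1771). There were 3 higher and 4 lower when the second iron-deficient pool was left out, beside 3468 and 7077 among all. Over the tested probe sets, the difference of pool 2 from pool 1 in the controls correlated at 0.357 with that in the iron-deficient pools. With 2 pairs, this does not show that the numbers pair the pools. The count of 15 genes with a 2-fold gap in iron-deficient pool 2 was 10 at a 3-fold gap, against 0.0622% of all probe sets. It was 17 at a 1.5-fold gap, against 1.35%, and 15 with each array's own background as floor, against 0.289%. The count of tested genes with both iron-deficient pools above both controls was 5, against 11.8% of all tested probe sets. It stayed at 5 with median centring and with quantile normalization. With a pool left out, fewer pools are easier to order. The share over all probe sets was not computed for those sets, so their counts are not given. The fit without the lowest 60% held 8 of the 21 genes. Dim signals limit Myf5, Myf6, Pax7, Neb, Ckm and the receptor subunits.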

Other observations

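Among adrenal markers, 3 genes of the chromaffin cells that make catecholamines were bright in the first iron-deficient pool, the one in which the contractile genes were not. Th, the first enzyme of that pathway, gave 4.6 and 5 in the controls, then 81.8 and 8.7 in deficient pools 1 and 2. Dbh, a later enzyme, gave 0.9, 0.5, 72.6 and 11.7, and Chga, a protein of secretory granules, gave 12, 16.8, 55.9 and 10.1. Of the steroid-making enzymes of the adrenal cortex, Cyp11a1 gave 37.8, 20.3, 31.2 and 24.3 and Cyp21a1 gave 33.5, 14.5, 36.4 and 13.9. The groups overlapped for both, though Cyp21a1 was highest in deficient pool 1. Hsd3b1 (3.1, 6.5, 14.2 and 10.2) and Cyp11b1 (4.6, 4.6, 10.4 and 9.9) were also highest there but above background in no pool. Afp, alpha-fetoprotein of liver, was low in the same pool, at 98.3 against 846.4 to 1290 elsewhere.

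Outside the muscle and liver lists used here, genes near the top of the ranking for iron-deficient pool 2 included Fos, an immediate early gene (87, 93.3, 124.6 and 902.8), and Igfbp1, a secreted binding protein of insulin-like growth factors (335.8, 351.3, 330.7 and 980.9). Absence from these lists does not mean that liver does not make them. These genes were picked after their values were seen.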
